A study of Mus musculus with 24 samples.

Results

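The subcortical maternal complex is a protein assembly under the surface of the mouse egg and cleavage embryo, and the RNA of 6 of its genes was followed here together with 4 further genes of the NLRP family. The complex genes were Nlrp5, Tle6, Ooep, Khdc3, Padi6 and Zbed3, and the further NLRP genes were Nlrp2, Nlrp4f, Nlrp9b and Nlrp14. The 10 genes were given as a list of symbols, and each of the 10 was found among the 55291 genes of the read count files. The study blocked MERVL, a mouse endogenous retrovirus that is switched on when the embryo first transcribes its own genome, with antisense oligonucleotides (ASOs), of which it used 3 as a mix, injected at 20 µM in all into the male pronucleus of the zygote. Controls received a scrambled ASO in the same way. All embryos were of the strain labelled BDF2, from B6D2F1 females and males bought at 8 weeks of age. Embryos were taken at the 2-cell stage at 1.5 days post coitum (dpc) and at the 4-cell and 8-cell stages, both labelled 2.5 dpc. Each of the 12 RNA libraries pooled 30 embryos freed of the zona pellucida, with 2 libraries for each of 6 groups, so a library carries no information on single embryos.

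NLRP5 (also called MATER), TLE6, OOEP (FLOPED) and KHDC3 (FILIA) form the core of the complex, and eggs that lack NLRP5, TLE6 or OOEP give embryos that stop early in cleavage. PADI6, a member of the peptidylarginine deiminase family, is needed for the fibrous lattices that fill the egg cytoplasm, and ZBED3 takes part in placing the spindle at the middle of the dividing cell. Most of these genes are transcribed in the growing oocyte under factors such as FIGLA and NOBOX, and their proteins outlast the clearance of the maternal mRNA after fertilization. Of the further NLRP proteins, NLRP2 and NLRP4F bind complex proteins, NLRP14 works with UHRF1 in the early embryo, and NLRP9B is known in the gut as a sensor of viral RNA.

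Knockdown was checked first in every library, in CPM, counts set to a common library total and scaled by the trimmed mean of M-values (TMM). The internal part of MERVL (MERVL-int) stood at 67693 and 74781 CPM in the control 2-cell libraries and at 1324 and 1228 CPM in the MERVL-KD 2-cell libraries. At the 4-cell stage it stood at 20321 and 17412 CPM in control and at 493 and 319.6 CPM in MERVL-KD, and at the 8-cell stage at 12222 and 12012 CPM in control and at 277 and 295 CPM in MERVL-KD. MERVL-int was therefore low in each of the 6 MERVL-KD libraries and high in each of the 6 control libraries, with no overlap at any of the 3 stages. MT2_Mm, the long terminal repeat of MERVL, stood at 4829 and 5328 CPM in control and at 766 and 889 CPM in MERVL-KD at the 2-cell stage. The values were 1459 and 1298 CPM against 445 and 440.1 CPM at the 4-cell stage, and 1064 and 1031 CPM against 533 and 490.2 CPM at the 8-cell stage. MT2_Mm was lower in MERVL-KD than in control at each stage, by less than MERVL-int.

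Depth was similar between groups. Total counts were 33532931 and 41320446 in the control 2-cell libraries, 35524346 and 30450413 in MERVL-KD 2-cell, 34671067 and 28167085 in control 4-cell, and 33024212 and 33089736 in MERVL-KD 4-cell. They were 31557127 and 33309531 in control 8-cell and 34491197 and 41482526 in MERVL-KD 8-cell. The scale of the comparison matters at the 2-cell stage, where repeats took 23.6% and 25.2% of the control counts and 16.5% and 15.8% of the MERVL-KD counts. Scaling by library size alone in place of TMM moved the median log2 fold change of all genes, MERVL-KD against control, from 0.01 to 0.30 at the 2-cell stage and from 0.01 to 0.13 at the 8-cell stage. The least covered value among the 10 genes was that of Khdc3, with 36 counts in MERVL-KD 2-cell replicate 2, and the most covered that of Zbed3, with 175066 counts in control 2-cell replicate 1.

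The 10 genes lie on 5 chromosomes, 4 of them on chromosome 7 (Nlrp2, Nlrp5, Nlrp9b and Nlrp14). Ooep and Khdc3 both lie on chromosome 9, Zbed3 and Nlrp4f on chromosome 13, Padi6 on chromosome 4 and Tle6 on chromosome 10. None of the 10 had a stretch matching a MERVL ASO with at most 2 mismatches, inside the gene or within 50 kb of it. Of 76 listed genes outside them 3 had such a stretch within 50 kb, Zscan4c (11504 bases away at the nearest, on its own strand), Zscan4d and Sohlh1 (on the opposite strand), and none had it inside. The annotation limits what the counts of Khdc3 mean. Of its 2050 exonic bases, 790 are shared on the same strand with Gm20509, a readthrough model, and Gm20509 had 0 counts in all 12 libraries although none of its 1016 bases is its own. Reads in shared bases were thus not given to Gm20509, whether they were given to Khdc3 is not stated, and no level per length is printed for Khdc3, which has 1260 bases of its own. Nlrp2 shares 105 of 3509 bases with Gm18757 on the opposite strand, and Nlrp9b shares 136 of 3724 with Gm18877 on the same strand.

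Promoters from RefSeq (GRCm38.p6) were matched for 9 of the 10 genes, Nlrp14 being the gene without an entry, and the 250 bases before the start were searched on both strands. The E-box CANNTG, the kind of site that FIGLA binds, was present in 8 of 9, with a share of 66.2% over 32851 promoters of the same length. TAATTA, a NOBOX-type site, was present in 1 of 9 (Nlrp5) against 4.84% of all promoters, and TAATTG in 2 of 9 (Ooep and Nlrp9b) against 7.17%. The TATA box letters TATAAA were present in 1 of 9 (Nlrp9b) against 12.4%. The RefSeq start lies 16558 bases from the start used for counting in Nlrp9b, 562 bases in Khdc3 and 261 bases in Nlrp4f, and 173 and 137 bases in Tle6 and Ooep. Of the 250 bases searched, all are exon in the counting files for Nlrp4f, 137 for Ooep, 95 for Tle6, 57 for Khdc3 and 40 for Nlrp2, and these windows are part of the counts of 9. A match describes the sequence and nothing about binding. The promoters of Nlrp5, Padi6 and Zbed3 are shown because they belong to a core gene and to the genes with the smallest and the largest fold fall in CPM from the 2-cell to the 4-cell stage, and because their RefSeq starts lie within 7 bases of the starts used for counting. They come from chr7:23385639-23385888 on the plus strand, chr4:140742644-140742893 on the minus strand and chr13:95323355-95323604 on the plus strand. Each is written 5′ to 3′ up to the base before the RefSeq start, with the E-boxes and, in Nlrp5, TAATTA in capitals.
Nlrp5: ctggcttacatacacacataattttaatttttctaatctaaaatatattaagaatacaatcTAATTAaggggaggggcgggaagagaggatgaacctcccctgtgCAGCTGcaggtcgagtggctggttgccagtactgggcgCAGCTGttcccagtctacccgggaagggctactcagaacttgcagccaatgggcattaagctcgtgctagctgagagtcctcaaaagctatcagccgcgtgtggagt
Padi6: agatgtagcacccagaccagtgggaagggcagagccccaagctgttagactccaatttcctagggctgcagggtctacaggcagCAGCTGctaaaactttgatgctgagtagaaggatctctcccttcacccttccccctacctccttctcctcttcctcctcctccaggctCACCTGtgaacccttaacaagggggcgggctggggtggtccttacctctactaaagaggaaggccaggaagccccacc
Zbed3: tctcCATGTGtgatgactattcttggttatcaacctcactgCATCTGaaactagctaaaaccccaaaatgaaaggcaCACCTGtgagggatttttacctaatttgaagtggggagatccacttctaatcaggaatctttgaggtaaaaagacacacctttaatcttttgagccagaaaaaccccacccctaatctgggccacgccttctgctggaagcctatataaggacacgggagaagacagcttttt
Counted from the RefSeq start, the E-boxes begin at -145 and -107 and TAATTA at -189 in Nlrp5. The E-boxes begin at -166 and -78 in Padi6 and at -246, -209 and -173 in Zbed3.

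Levels between genes were compared per length, as CPM per kilobase of exon (RPKM, with TMM scaling and n = 2 libraries per group). In control 2-cell embryos Zbed3 stood far above the others at 2283 ± 310 RPKM (mean ± SD). Nlrp4f followed at 88.0 ± 10.3 RPKM and Nlrp14 at 47.1 ± 1.22 RPKM. Padi6 at 33.6 ± 2.45 RPKM and Nlrp5 at 31.8 ± 3.05 RPKM overlapped, as did Ooep at 15.9 ± 2.16 RPKM and Tle6 at 15.2 ± 0.550 RPKM. Nlrp9b at 10.7 ± 0.462 RPKM and Nlrp2 at 5.69 ± 0.650 RPKM were the lowest of the 9 genes ranked.

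By the control 4-cell stage the order had been compressed. Zbed3 was still first at 34.5 ± 1.72 RPKM, followed by Padi6 at 15.3 ± 0.139 RPKM and Nlrp14 at 11.4 ± 0.0400 RPKM. Nlrp4f at 9.56 ± 1.22 RPKM overlapped Nlrp5 at 9.11 ± 0.361 RPKM, Tle6 lay at 4.63 ± 0.183 RPKM, and Ooep, Nlrp9b and Nlrp2 overlapped at 1.83, 1.68 and 1.62 RPKM. At the control 8-cell stage Zbed3 averaged 37.6 ± 25.1 RPKM, with its 2 libraries far apart, and Padi6 stood at 17.8 ± 0.651 RPKM. In MERVL-KD embryos the first 3 places were the same at each stage: Zbed3, Nlrp4f and Nlrp14 at the 2-cell stage, and Zbed3, Padi6 and Nlrp14 at the 4-cell and 8-cell stages. The plot of CPM in every library shows each of the 10 genes with its own axis.

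**Figure D1:**
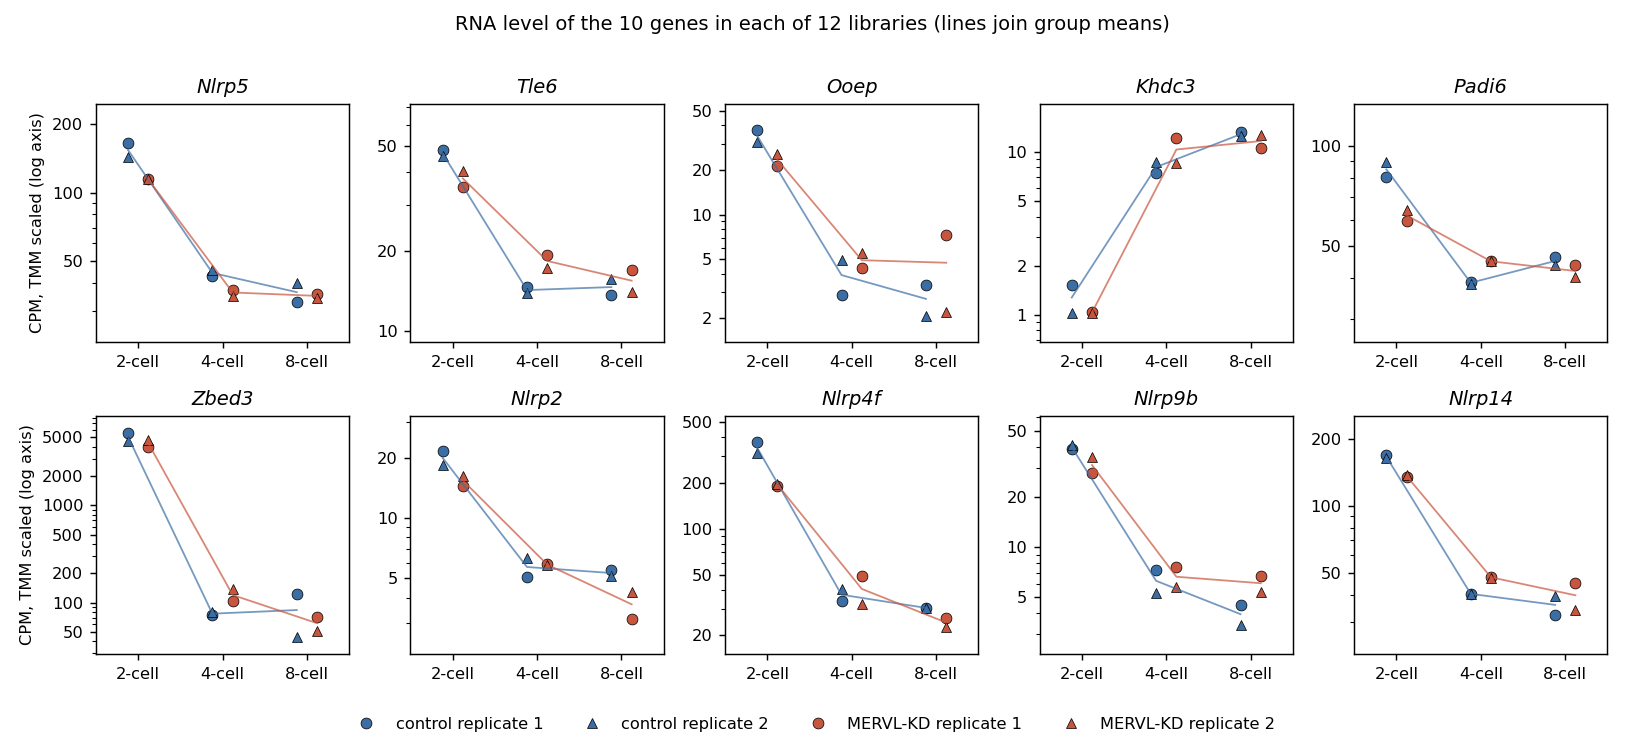
RNA level of each of the 10 genes in CPM with TMM scaling (log axis) at the 2-cell, 4-cell and 8-cell stages; circles and triangles are replicates 1 and 2, blue is control, red is MERVL-KD, and lines join group means. In both control and MERVL-KD, 9 genes were lower in both 4-cell libraries than in both 2-cell libraries and Khdc3 was higher, and this held with library-size scaling too.

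The step from the 2-cell to the 4-cell stage in control embryos falls in the time in which the embryo clears maternal RNA. The paper places the major wave of genome activation before it, at the middle-to-late 2-cell stage. All 10 genes changed by at least 2-fold with an adjusted p under 0.05 (edgeR, as for all such tests here), 9 of them lower and Khdc3 higher, where 53.5% of 20272 genes were called, 28.5% lower and 25% higher. The groups of none of the 10 overlapped, where 43.4% of all genes were apart and lower and 41.6% apart and higher. DESeq2 also called 10 of 10. The median log2 fold change of the 10 was -1.84, beside -0.04 over all genes. The samples are pools of whole embryos, so fewer cells holding an RNA and less of it per cell cannot be told apart.

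Among the core genes, Nlrp5 stood at 165 and 144 CPM in the control 2-cell libraries and at 42.9 and 45.4 CPM in the control 4-cell libraries. Tle6 stood at 48.2 and 45.8 CPM and then at 14.7 and 13.9 CPM. Ooep stood at 37.2 and 30.6 CPM and then at 2.89 and 4.93 CPM. Each of these 3 was low in both 4-cell libraries, and Ooep was the lowest of them relative to its start. The log2 fold changes were -1.72 for Nlrp5 (95% interval -1.96 to -1.48, adjusted p = 2.74e-07), -1.63 for Tle6 (-1.93 to -1.33, adjusted p = 2.04e-06) and -3.04 for Ooep (-3.59 to -2.50, adjusted p = 1.85e-06).

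Khdc3, whose protein binds the other core proteins and guards chromosome number, went the other way. It stood at 1.53 and 1.02 CPM in the control 2-cell libraries and at 7.43 and 8.65 CPM in the control 4-cell libraries. Both 4-cell libraries were above both 2-cell libraries, from 48 and 37 counts to 262 and 249 counts. In the fit this was a log2 fold change of 2.74 (2.05 to 3.44, adjusted p = 2.37e-05). Rsl24d1, the gene at the other end of the readthrough model, stood at 81.7 and 78.3 CPM and then at 121 and 128 CPM in the same libraries.

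Padi6 and Zbed3, the peripheral genes of the complex, marked the ends of the range among the genes that fell. Zbed3 stood at 5582 and 4603 CPM in the control 2-cell libraries and at 74.2 and 79.7 CPM in the control 4-cell libraries. Padi6 stood at 80.6 and 89.4 CPM and then at 39.0 and 38.5 CPM. Zbed3 was left with 1.60% of its 2-cell level and Padi6 with 48.3%, and neither had overlapping groups. The log2 fold changes were -5.96 for Zbed3 (-6.23 to -5.70, adjusted p = 8.47e-10) and -1.05 for Padi6 (-1.29 to -0.81, adjusted p = 1.21e-05), the latter falling short of 2-fold, at -0.96, with library-size scaling.

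Of the further NLRP genes, Nlrp4f stood at 369 and 312 CPM in the control 2-cell libraries and at 33.7 and 40.3 CPM in the control 4-cell libraries. Nlrp14 stood at 169.6 and 163 CPM and then at 40.2 and 40.4 CPM. Nlrp9b stood at 38.6 and 41.0 CPM and then at 7.26 and 5.28 CPM. All 3 were low in both 4-cell libraries, as was Nlrp2, which stood at 21.6 and 18.4 CPM and then at 5.08 and 6.32 CPM. The log2 fold changes were -3.12 for Nlrp4f (-3.40 to -2.84, adjusted p = 1.73e-08), -1.96 for Nlrp14 (-2.17 to -1.75, adjusted p = 5.01e-08), -2.57 for Nlrp9b (-2.98 to -2.17, adjusted p = 7.06e-07) and -1.73 for Nlrp2 (-2.17 to -1.28, adjusted p = 2.82e-05).

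The step from the 4-cell to the 8-cell stage in control embryos shares the control 4-cell libraries with the step before. Both stages carry the same day label, so it compares embryos by cell number and not by labelled age. None of the 10 genes was called in it by edgeR or by DESeq2. In edgeR 4 had an unadjusted p under 0.05, and the share of all genes by that rule was not computed, here or below. Over all genes 1.74% of 18603 were called (1.04% lower, 0.693% higher). In the control 8-cell libraries Khdc3 stood at 13.1 and 12.4 CPM, both above its 4-cell values. Its log2 fold change of 0.65 (0.23 to 1.08) had an adjusted p of 0.0491 and was under 2-fold, where 6.54% of all genes were higher by the adjusted p alone. Nlrp5 (-0.30), Nlrp4f (-0.30) and Nlrp9b (-0.68) made up the rest of the 4, with adjusted p of 0.167, 0.177 and 0.155. Ooep (-0.54), Nlrp14 (-0.18), Nlrp2 (-0.11), Padi6 (0.20) and Tle6 (0.02, or -0.17 with library-size scaling) had adjusted p of 0.304 to 0.961. With library-size scaling Khdc3 no longer passed (0.46, adjusted p = 0.149), and Nlrp5 and Nlrp4f did (-0.49 each, adjusted p = 0.0295 each), all under 2-fold. The median of the 10 was -0.15, beside 0.00 over all genes, and with library-size scaling -0.33 beside -0.19, a distance of -0.14 both ways. Leaving out 1 control 4-cell library moved the members' median to -0.22 (replicate 1) or -0.06 (replicate 2). For Zbed3 the value hung on single libraries. It stood at 123 CPM in control 8-cell replicate 1 and at 44.3 CPM in replicate 2, on either side of its 4-cell values. Its log2 fold change of 0.11 (-2.33 to 2.55, adjusted p = 0.953) became -0.81 without replicate 1 and 0.67 without replicate 2.

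MERVL-KD against control at the 2-cell stage asks what loss of MERVL RNA does to these genes when MERVL is most abundant. With TMM scaling all 10 log2 fold changes were below 0, with a median of -0.28 beside 0.01 over all genes, and with library-size scaling 5 were above 0 and 5 below. The distance of the members' median from that of all genes was -0.30 under both scalings. None of the 10 was called by edgeR at 2-fold, where 6.61% of 20604 genes were (2.24% lower, 4.37% higher), and none by DESeq2. In edgeR 3 were lower at an adjusted p under 0.05 with no threshold on the fold, where 7.39% of all genes were lower. In either direction 2904 of 20604 genes passed that rule. At an unadjusted p under 0.05 there were 5 of the 10, and the share of all genes there was not computed. With TMM scaling both MERVL-KD libraries lay below both control libraries in 8 of 10, where 27% of all genes did, with 29.1% apart and higher. With library-size scaling they did so in 2 of 10 (Padi6 and Nlrp4f), where 11.1% of all genes did, Nlrp14 was apart and higher, as 51.5% of all genes were, and 7 overlapped.

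Nlrp4f moved most. It stood at 369 and 312 CPM in control and at 192 and 198 CPM in MERVL-KD. Both MERVL-KD libraries were well below both controls, at 60.6% of the control level in the fit. The log2 fold change was -0.72 (-0.92 to -0.52, adjusted p = 9.72e-05), and with library-size scaling -0.44 (adjusted p = 0.00496), the range of adjusted p over 12 alternatives being 8.16e-13 to 0.00496. Nlrp4f was thus the 1 gene of the 3 with an adjusted p under 0.05 at both scalings.

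Nlrp5 stood at 165 and 144 CPM in control and at 114 and 115 CPM in MERVL-KD. Padi6 stood at 80.6 and 89.4 CPM in control and at 59.4 and 64.2 CPM in MERVL-KD. For both genes the 2 MERVL-KD libraries lay close together and below the controls with TMM scaling, while those of Nlrp5 overlapped the controls with library-size scaling. The log2 fold changes were -0.35 for Nlrp5 (-0.55 to -0.14, adjusted p = 0.0239) and -0.38 for Padi6 (-0.59 to -0.16, adjusted p = 0.0209). With library-size scaling they were -0.06 (adjusted p = 0.701) and -0.09 (adjusted p = 0.570), the highest adjusted p of any alternative, the lowest being 0.00271 and 0.00696.

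Ooep stood at 37.2 and 30.6 CPM in control and at 21.2 and 25.5 CPM in MERVL-KD, with no overlap in TMM-scaled values. The fitted change of -0.46 (-0.77 to -0.14) had an adjusted p of 0.0531. With library-size scaling it was -0.17 (adjusted p = 0.452). Over 12 alternatives the change ran from -0.61 to -0.17, with the adjusted p on both sides of 0.05. Tle6 stood at 48.2 and 45.8 CPM against 35.0 and 40.4 CPM, and Nlrp14 at 169.6 and 163 CPM against 135 and 137 CPM. On the TMM scale these 2 did not overlap between groups either, nor did Nlrp2 and Nlrp9b. With library-size scaling Ooep, Tle6, Nlrp2 and Nlrp9b overlapped, and both MERVL-KD libraries lay above both controls for Nlrp14. The log2 fold changes of Tle6, Nlrp14, Nlrp2 and Nlrp9b lay between -0.29 and -0.21 with adjusted p of 0.141 to 0.262, and those of Tle6, Nlrp14 and Nlrp9b turned positive with library-size scaling. Khdc3, at 1.05 and 1.02 CPM in MERVL-KD, and Zbed3, at 3981 and 4746 CPM, overlapped their controls. Their log2 fold changes were -0.22 (-1.19 to 0.76, adjusted p = 0.823) and -0.14 (-0.36 to 0.08, adjusted p = 0.410), and these too turned positive with library-size scaling.

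At the 4-cell stage the same comparison gave 0 of 10 called by edgeR and by DESeq2, with 2 at an unadjusted p under 0.05 in edgeR, where 4.54% of 19738 genes were called (1.88% lower, 2.66% higher). Under both scalings 9 of the 10 log2 fold changes were above 0 and Nlrp5 was below. The median was 0.24 beside 0.03 over all genes, or 0.15 without MERVL-KD 4-cell replicate 1. In 4 genes (Tle6, Padi6, Zbed3 and Nlrp14) both MERVL-KD libraries lay above both controls, where 28.3% of all genes did, and in Nlrp5 both lay below, where 26% did.

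Zbed3 stood at 74.2 and 79.7 CPM in control 4-cell embryos and at 103 and 137 CPM in MERVL-KD. Both MERVL-KD libraries were above both controls, and they differed from each other by more than the controls did. The log2 fold change was 0.64 (0.36 to 0.93, adjusted p = 0.00910), under 2-fold, and Zbed3 was the 1 gene of the 10 past the adjusted p alone, where 4.92% of all genes were higher by that rule. Over the alternatives its adjusted p ran from 3.14e-06 to 0.507. Nlrp5, at 42.9 and 45.4 CPM in control, stood at 37.3 and 35.1 CPM in MERVL-KD. That is a log2 fold change of -0.28 (-0.56 to 0.00, adjusted p = 0.198).

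Padi6 stood at 39.0 and 38.5 CPM in control 4-cell embryos and at 44.9 and 45.0 CPM in MERVL-KD. Nlrp14 stood at 40.2 and 40.4 CPM against 48.1 and 47.6 CPM. Tle6 stood at 14.7 and 13.9 CPM against 19.4 and 17.4 CPM. All 3 were somewhat higher in both MERVL-KD libraries, with log2 fold changes of 0.22 (adjusted p = 0.306), 0.25 (adjusted p = 0.225) and 0.37 (adjusted p = 0.211). Nlrp4f, at 48.7 and 32.0 CPM in MERVL-KD, had its controls of 33.7 and 40.3 CPM between these values. Its log2 fold change of 0.13 (-0.28 to 0.55, adjusted p = 0.740) became -0.21 without MERVL-KD 4-cell replicate 1. Ooep (4.37 and 5.49 CPM in MERVL-KD), Khdc3 (12.1 and 8.53 CPM), Nlrp2 (5.88 and 5.84 CPM) and Nlrp9b (7.55 and 5.73 CPM) also overlapped their controls.

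At the 8-cell stage none of the 10 was called by edgeR or by DESeq2, where 1.7% of 18414 genes were called (1.06% lower, 0.641% higher), and 1 had an unadjusted p under 0.05 in edgeR. The median log2 fold change was -0.07 beside 0.01 over all genes, and 0.06 beside 0.13 with library-size scaling. With 1 library left out the members' median lay between -0.12 and -0.01. Nlrp9b was the gene with the unadjusted p under 0.05. It stood at 4.50 and 3.42 CPM in control and at 6.75 and 5.39 CPM in MERVL-KD. Both MERVL-KD libraries were higher, as for 24.1% of all genes, with a log2 fold change of 0.63 (0.03 to 1.22, adjusted p = 0.232). Nlrp2, at 5.48 and 5.16 CPM in control and 3.15 and 4.28 CPM in MERVL-KD, and Nlrp4f, at 30.4 and 30.2 CPM in control and 26.0 and 22.6 CPM in MERVL-KD, were lower in both MERVL-KD libraries, as were 25.4% of all genes. Their log2 fold changes were -0.51 (adjusted p = 0.357) and -0.31 (adjusted p = 0.264).

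For Ooep and Zbed3 single libraries set the value at the 8-cell stage. Ooep stood at 3.34 and 2.08 CPM in control and at 7.27 and 2.21 CPM in MERVL-KD, where replicate 1 was the high library with 252 counts against 86 in replicate 2. Its log2 fold change of 0.81 (-0.36 to 1.99, adjusted p = 0.451) became 1.43 (adjusted p = 0.00242) without MERVL-KD replicate 2 and -0.29 without MERVL-KD replicate 1, and its adjusted p over the alternatives ran from 0.00242 to 0.851. Zbed3 stood at 123 and 44.3 CPM in control and at 71.9 and 51.0 CPM in MERVL-KD. The MERVL-KD values lay between the controls, with a log2 fold change of -0.44 (-2.50 to 1.61, adjusted p = 0.810). It became 0.49 without control replicate 1, -0.997 without control replicate 2, -0.71 without MERVL-KD replicate 1, and -0.21 without MERVL-KD replicate 2. Nlrp5 (35.6 and 34.3 CPM in MERVL-KD), Tle6 (17.0 and 14.0 CPM), Khdc3 (10.6 and 12.6 CPM) and Nlrp14 (45.3 and 34.2 CPM) overlapped their controls, with log2 fold changes between -0.13 and 0.15. Padi6 stood at 46.2 and 43.9 CPM in control and at 43.7 and 40.3 CPM in MERVL-KD (-0.09), values that overlapped when TMM was computed from these 4 libraries alone and with library-size scaling, under which the change turned positive.

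**Figure D2:**
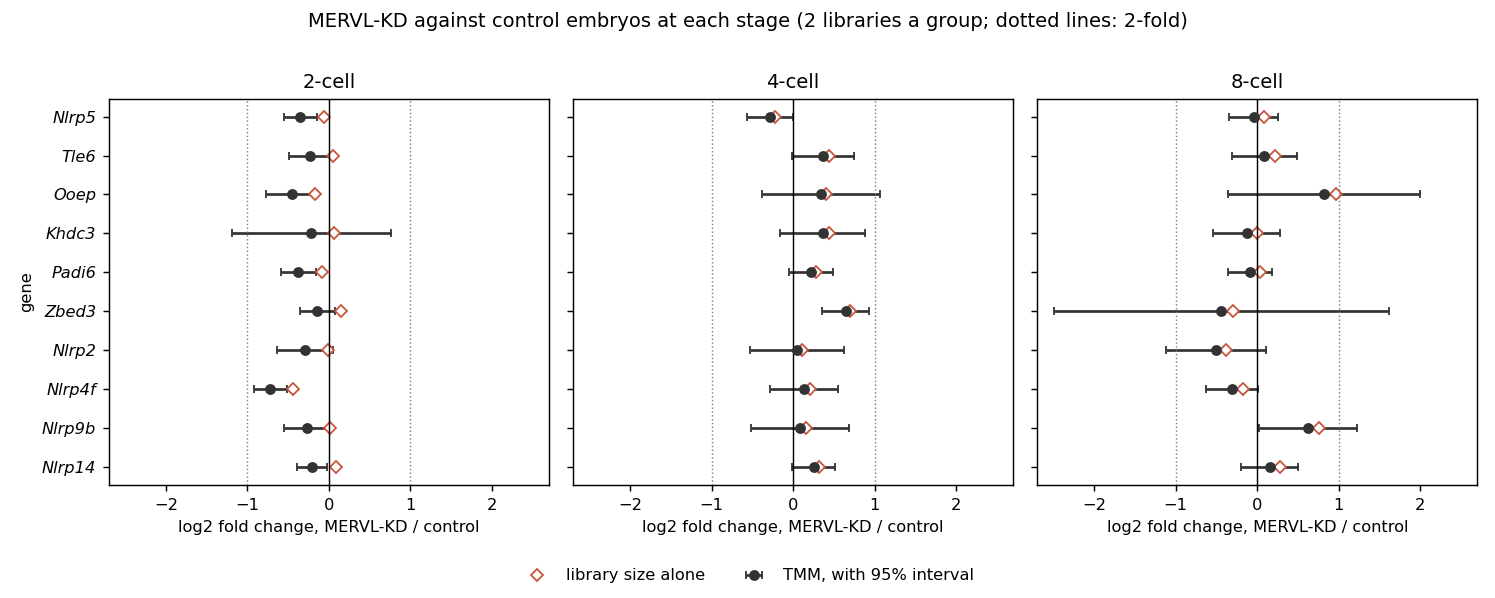
Log2 fold change of the 10 genes, MERVL-KD against control, at the 2-cell, 4-cell and 8-cell stages (2 libraries per group); filled points and bars are the TMM-scaled fit with its 95% interval, open diamonds are library-size scaling, and dotted lines mark 2-fold. At the 2-cell stage all 10 filled points lie below 0, and 5 of the diamonds (Tle6, Khdc3, Zbed3, Nlrp9b and Nlrp14) lie above it.

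In MERVL-KD embryos the step from the 2-cell to the 4-cell stage was called for 8 of the 10 genes, 7 lower and Khdc3 higher, where 49.6% of 21519 genes were called, 26.4% lower and 23.3% higher. Again no gene overlapped between the stages, where 42.7% of all genes were apart and lower and 39.6% apart and higher. DESeq2 called 9. The median was -1.55 beside -0.06 over all genes, and -1.72 beside -0.24 with library-size scaling. Zbed3 fell again the most, from 3981 and 4746 CPM to 103 and 137 CPM, with a log2 fold change of -5.15 (-5.51 to -4.79, adjusted p = 7.76e-09). Nlrp4f went from 192 and 198 CPM to 48.7 and 32.0 CPM (-2.23, adjusted p = 1.61e-06), and Ooep from 21.2 and 25.5 CPM to 4.37 and 5.49 CPM (-2.20, adjusted p = 9.67e-06). In each of these 3 both 4-cell libraries were far below both 2-cell libraries. Khdc3 went from 1.05 and 1.02 CPM to 12.1 and 8.53 CPM (3.35, 2.65 to 4.06, adjusted p = 6.54e-06). Nlrp9b (-2.19), Nlrp5 (-1.62), Nlrp14 (-1.47) and Nlrp2 (-1.35) were the other genes called lower, with adjusted p from 7.44e-07 to 0.000277.

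The 2 genes not called in that step missed the fold and passed the adjusted p, by which alone 30.9% of all genes were lower. Tle6 went from 35.0 and 40.4 CPM to 19.4 and 17.4 CPM, a log2 fold change of -0.99 (-1.35 to -0.64, adjusted p = 0.000346) that sat at the 2-fold limit. It passed the limit without MERVL-KD 2-cell replicate 1 (-1.12), without MERVL-KD 4-cell replicate 1 (-1.09), with library-size scaling (-1.16), in DESeq2 (-1.01), in the joint fit (-1.03) and with filters of 1 count (-1.03) and 10 counts (-1.08), which made 7 of 12 alternatives. Padi6 went from 59.4 and 64.2 CPM to 44.9 and 45.0 CPM, with -0.42 (-0.69 to -0.15, adjusted p = 0.0129), and without MERVL-KD 2-cell replicate 2 it missed the adjusted p as well (0.0893). Both genes were lower in both 4-cell libraries than in both 2-cell libraries.

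From the 4-cell to the 8-cell stage in MERVL-KD embryos, which shares the MERVL-KD 4-cell libraries with the step before, none of the 10 was called by edgeR or by DESeq2, with 3 at an unadjusted p under 0.05 in edgeR, and 0.887% of 19505 genes were called (0.677% lower, 0.21% higher). The median was -0.20 beside -0.02 over all genes, and -0.33 beside -0.14 with library-size scaling. The members' median became -0.42 without MERVL-KD 8-cell replicate 1 and -0.06 without replicate 2. Zbed3 went from 103 and 137 CPM to 71.9 and 51.0 CPM, with no overlap. Its log2 fold change of -0.97 (-1.38 to -0.57, adjusted p = 0.0293) was just under 2-fold (0.954% of all genes were lower by the adjusted p alone), and it passed the limit with library-size scaling (-1.09), without MERVL-KD 4-cell replicate 1 (-1.16) and without MERVL-KD 8-cell replicate 1 (-1.23). It shrank to -0.76 without MERVL-KD 4-cell replicate 2 and to -0.73 without MERVL-KD 8-cell replicate 2, and in the joint fit the adjusted p was 0.359. Nlrp4f, with -0.74 (-1.18 to -0.31, adjusted p = 0.0836), passed without MERVL-KD 4-cell replicate 2 (-1.02, adjusted p = 0.00139) and shrank to -0.41 without replicate 1, its adjusted p over the alternatives running from 0.000650 to 0.337. Nlrp2 was the third gene, with -0.67 (adjusted p = 0.253). Nlrp14 (-0.28), Tle6 (-0.26), Nlrp9b (-0.14), Padi6 (-0.11), Ooep (-0.07), Nlrp5 (-0.06) and Khdc3 (0.16) had adjusted p of 0.398 to 0.962.

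Whether the step from the 2-cell to the 4-cell stage differed between MERVL-KD and control was tested directly over the 12 libraries, which is the same test as whether the MERVL-KD effect differed between these stages. Padi6 and Nlrp4f, 2 of the 10, had an adjusted p under 0.05, where 4.16% of 24040 genes did, 2.51% with a positive and 1.64% with a negative difference. With library-size scaling the 604 positive and 395 negative differences among all genes became 225 and 1275. DESeq2 gave 3, adding Tle6 at 0.69 (adjusted p = 0.0407). The difference was positive in all 10 genes with TMM scaling, and with library-size scaling in 9 of 10, Nlrp5 turning to -0.15. A positive value here means a smaller fold fall in scaled counts, or for Khdc3 a larger fold rise, from the 2-cell to the 4-cell stage in MERVL-KD than in control. Total RNA per embryo was not measured, so amounts of RNA lost cannot be read from it. The median was 0.66 beside 0.05 over all genes, and 0.37 beside -0.25 with library-size scaling, a distance of 0.62 both ways. Of the gene lists described below, the oocyte genes had a median of 0.57 (12 of 13 positive), the stage markers 0.61 (7 of 11), the cumulus and granulosa markers 0.69 (3 of 6), the maternal-effect genes 0.26, the relatives 0.12 and the other NLRP genes 0.09, and with library-size scaling these were 0.27, 0.30, 0.38, -0.05, -0.20 and -0.23.

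For Nlrp4f, the control libraries went from 369 and 312 CPM to 33.7 and 40.3 CPM and the MERVL-KD libraries from 192 and 198 CPM to 48.7 and 32.0 CPM. Its groups were apart at the 2-cell stage and overlapped at the 4-cell stage. The difference was 0.93 (0.48 to 1.39, adjusted p = 0.0206). For Padi6, control went from 80.6 and 89.4 CPM to 39.0 and 38.5 CPM and MERVL-KD from 59.4 and 64.2 CPM to 44.9 and 45.0 CPM. Its MERVL-KD libraries were the lower ones at the 2-cell stage and the higher ones at the 4-cell stage. The difference was 0.68 (0.33 to 1.02, adjusted p = 0.0224). Tle6 at 0.68 (0.22 to 1.14, adjusted p = 0.0922) and Nlrp14 at 0.54 (0.16 to 0.91, adjusted p = 0.101) had an unadjusted p under 0.05. Ooep (0.88), Zbed3 (0.86), Khdc3 (0.65), Nlrp9b (0.44), Nlrp2 (0.42) and Nlrp5 (0.14, or -0.15 with library-size scaling) had adjusted p of 0.429 to 0.730.

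Both calls were lost with library-size scaling, where Padi6 had 0.37 (adjusted p = 0.219) and Nlrp4f 0.64 (adjusted p = 0.187), the highest adjusted p of 19 alternatives, the lowest being 0.00160 and 7.11e-05. They also rested on single libraries. Padi6 lost its call without 8 of the 12 libraries. These were control 2-cell replicate 2 (0.59, adjusted p = 0.119), MERVL-KD 2-cell replicate 1 (0.62, adjusted p = 0.113), control 4-cell replicate 1 (0.69, adjusted p = 0.0763) and replicate 2 (0.67, adjusted p = 0.0786), MERVL-KD 4-cell replicate 2 (0.56, adjusted p = 0.114), control 8-cell replicate 1 (0.56, adjusted p = 0.0780) and replicate 2 (0.56, adjusted p = 0.0777), and MERVL-KD 8-cell replicate 2 (0.56, adjusted p = 0.0564). Nlrp4f lost its call without 7 of the 12. These were control 2-cell replicate 1 (0.83, adjusted p = 0.0799), MERVL-KD 2-cell replicate 1 (0.91, adjusted p = 0.0978) and replicate 2 (0.94, adjusted p = 0.0718), control 4-cell replicate 1 (0.81, adjusted p = 0.0780), MERVL-KD 4-cell replicate 1 (0.60, adjusted p = 0.0628), and control 8-cell replicate 1 (0.82, adjusted p = 0.0600) and replicate 2 (0.82, adjusted p = 0.0595). Both genes kept a positive difference in each of these fits.

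The same test between the 8-cell and the 4-cell stage gave 0 of 10 genes in edgeR and in DESeq2, with 0 at an unadjusted p under 0.05 in edgeR, where 0.624% of 24040 genes were called (0.349% negative, 0.275% positive). The median was -0.30 beside -0.02 over all genes, or -0.16 without MERVL-KD 4-cell replicate 1, and the largest difference in size was that of Zbed3, at -1.09 (-2.68 to 0.51, adjusted p = 0.601), which moved between -1.59 and -0.15 when a control 8-cell library was left out. Nlrp2 (-0.56), Khdc3 (-0.50), Nlrp4f (-0.45), Padi6 (-0.31), Tle6 (-0.29), Nlrp14 (-0.11), Nlrp5 (0.23), Ooep (0.46) and Nlrp9b (0.54) had adjusted p of 0.448 to 0.891.

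**Figure D3:**
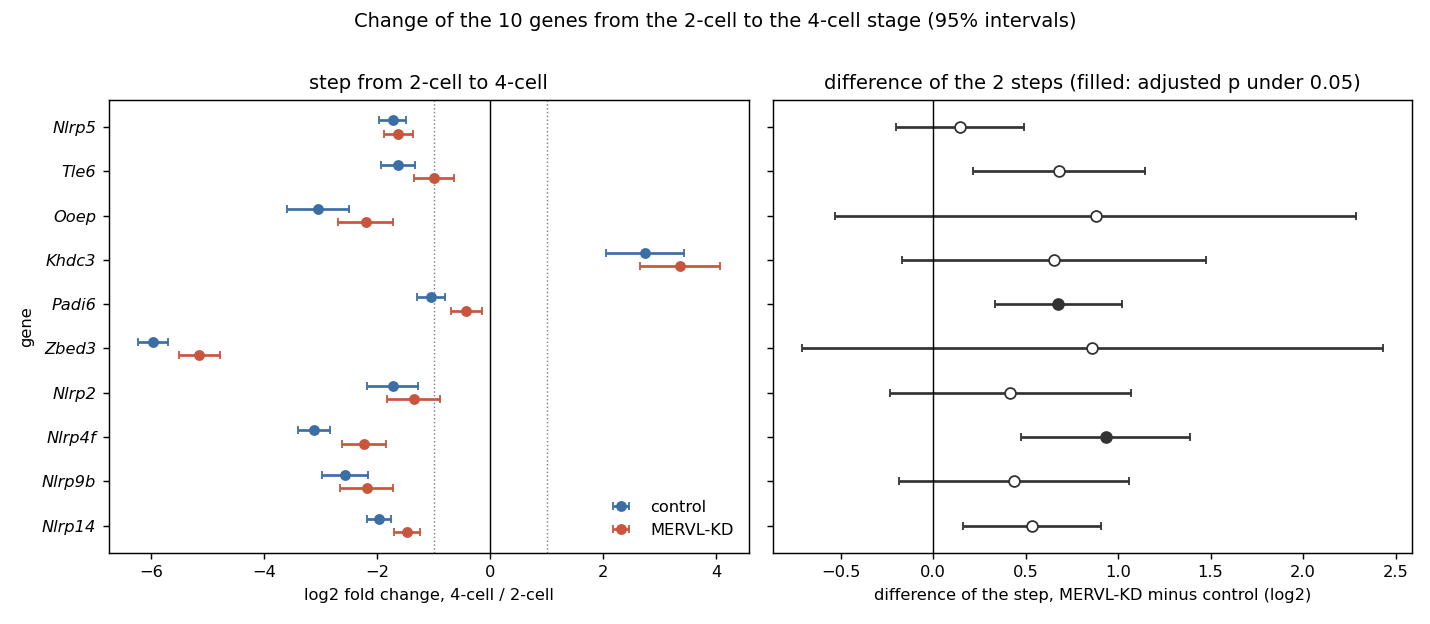
Left, log2 fold change of the 10 genes from the 2-cell to the 4-cell stage in control (blue) and MERVL-KD (red); right, the difference of these steps, MERVL-KD minus control, filled where the adjusted p was under 0.05; bars are 95% intervals and dotted lines mark 2-fold. Padi6 and Nlrp4f are the filled points, and with library-size scaling neither is filled and Nlrp5 lies below 0.

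Among 7584 genes with a mean of at least 10 CPM, the pattern over the 12 libraries most like the mean of the 6 complex genes was that of Uhrf1, a maternal-effect gene for DNA methylation, with a Euclidean distance of 0.306 on the centred log2 scale and a Pearson r of 0.994. Outside the 10 genes followed here, Rttn (distance 0.387, r 0.990), Akap7 (0.497, 0.989), Kif24 (0.501, 0.986), Sgo1 (0.523, 0.983), Haus4 (0.534, 0.984), Mepce (0.535, 0.980), Rictor (0.561, 0.981), Lin54 (0.565, 0.983) and Cntln (0.567, 0.981) came next. Ranked by r in place of distance, 3 of these 10 (Uhrf1, Rttn and Akap7) were among the first 10. The r values compare patterns over 12 libraries from 6 groups and carry no test. Of the genes followed here, Tle6 (distance 0.544) and Nlrp14 (0.678) were nearest to that mean, while Zbed3 (7.06) had a steeper fall and Khdc3 (7.75, r -0.947) an opposite course. Tle6 is itself part of that mean and lay nearer to it than Rictor.

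A list of 15 other NLRP genes was measured for comparison, all 15 present in the files and 11 tested in each of the comparisons below. In the control step from the 2-cell to the 4-cell stage 8 of 11 fell (Nlrp3, Nlrp4a, Nlrp4b, Nlrp4e, Nlrp4g, Nlrp6, Nlrp9a and Nlrp9c) and none rose at 2-fold, with a median of -2.15. DESeq2 called 7 lower. Over all genes 28.5% were called lower in that step by edgeR, with a median of -0.04. Nlrp4e stood at 154 and 120 CPM and then at 10.5 and 5.32 CPM (log2 fold change -4.02, adjusted p = 2.81e-06), and Nlrp9c at 134 and 119 CPM and then at 14.0 and 14.5 CPM (-3.07, adjusted p = 1.38e-08). Both 4-cell values were low in both genes. Nlrp6 had the smallest fall at -1.01 and was called in 5 of 12 alternatives, not without control 2-cell replicate 1 (-1.14) or 2 (-0.96) or control 4-cell replicate 2 (-0.997). The most abundant gene of the list, Nlrp4a, averaged 51.4 CPM over the 12 libraries and fell by 2.13 on the log2 scale. In MERVL-KD the same step gave 7 of 11 lower, all of the 8 but Nlrp6, with a median of -1.54. Over all genes 26.4% were called lower there, with a median of -0.06. From the 4-cell to the 8-cell stage Nlrp4e fell again in control (-1.05, adjusted p = 0.0497), a call kept in 7 of 12 alternatives and lost without control 4-cell replicate 1 (-0.46), control 8-cell replicate 1 (-1.06, adjusted p = 0.105) or control 8-cell replicate 2 (-1.03, adjusted p = 0.130), and none of 11 was called in MERVL-KD by edgeR, with 4 at an unadjusted p under 0.05 and 1 called by DESeq2.

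Nlrp4c was the NLRP gene outside the 10 that was called lower with MERVL knockdown at each of the 3 stages. It stood at 16.7 and 15.8 CPM in control 2-cell embryos and at 6.51 and 7.78 CPM in MERVL-KD. At the 4-cell stage it stood at 18.6 and 32.9 CPM in control and at 5.93 and 4.41 CPM in MERVL-KD, and at the 8-cell stage at 20.1 and 25.9 CPM in control and at 6.46 and 7.85 CPM in MERVL-KD. All 6 MERVL-KD libraries were below all 6 controls, and the control level did not drop after the 2-cell stage. The log2 fold changes were -1.11 (-1.50 to -0.72, adjusted p = 0.000704), -2.30 (-2.92 to -1.69, adjusted p = 0.000547) and -1.67 (-2.11 to -1.24, adjusted p = 0.000468). The 2-cell call fell short of 2-fold with library-size scaling (-0.82) and without MERVL-KD 2-cell replicate 1 (-0.996), and the 4-cell and 8-cell calls were kept in all 12 alternatives. Nlrp4c was the 1 of 11 called at each stage, also by DESeq2. The medians of the 11 were -0.34, 0.04 and 0.05, beside 0.01, 0.03 and 0.01 over all genes. At the 2-cell stage Nlrp4a (-0.44), Nlrp4e (-0.59) and Nlrp9c (-0.50) were lower at an adjusted p under 0.05 and under 2-fold, and with library-size scaling (-0.16, -0.30 and -0.21) none of the 3 passed. By the adjusted p alone 7.39% of all genes were lower at that stage. Nlrp9c was below the controls in both MERVL-KD libraries at the later stages too, without a call (-0.51, adjusted p = 0.122, and -0.69, adjusted p = 0.109).

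Relatives of the complex genes outside the NLRP family were listed as well, with 15 genes in the files. At the 2-cell stage 1 of 14 was called in MERVL-KD against control, Tle4, a co-repressor gene of the Groucho family to which Tle6 also belongs. Tle4 stood at 157 and 183 CPM in control and at 66.1 and 72.7 CPM in MERVL-KD. Both MERVL-KD libraries were low, and the log2 fold change was -1.21 (-1.42 to -0.998, adjusted p = 6.94e-07), or -0.92 with library-size scaling. At the 4-cell stage Tle4 stood at 233 and 219.7 CPM in control and at 195 and 209 CPM in MERVL-KD, with -0.16 (adjusted p = 0.320), and the difference between these stages was 1.13 (0.82 to 1.44, adjusted p = 0.000159).

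Khdc1b, of the KH-domain family to which Khdc3 belongs and the most abundant gene of that list, stood at 1435 and 1456 CPM in control 2-cell embryos and at 939 and 949.8 CPM in MERVL-KD (-0.53, adjusted p = 9.95e-05, or -0.24, adjusted p = 0.0218, with library-size scaling). At the 4-cell stage it stood at 186 and 181 CPM in control and at 64.0 and 65.9 CPM in MERVL-KD. At the 8-cell stage it stood at 115 and 124 CPM and at 62.3 and 50.5 CPM. The MERVL-KD libraries were lower at each stage, and as a ratio the difference was widest at the 4-cell stage. Khdc1b was the 1 gene of the list called at the 4-cell stage (-1.49, adjusted p = 3.52e-06, of 14 tested) and at the 8-cell stage (-1.07, adjusted p = 0.000298, of 13 tested), the latter falling under 2-fold with library-size scaling (-0.94) and without MERVL-KD 8-cell replicate 2 (-0.93). In the control step from the 2-cell to the 4-cell stage 5 of 14 of the list fell (Khdc1b, Tle1, Padi3, Zbed5 and Tle5) and Dppa5a rose (2.07, adjusted p = 1.70e-06), and in MERVL-KD the same 6 were called with Padi4 (1.20, adjusted p = 0.0222) and Tle4 (1.58, adjusted p = 6.06e-07) also higher. Over all genes 28.5% were called lower and 25% higher in control, and 26.4% and 23.3% in MERVL-KD. Padi4 lost its call without MERVL-KD 2-cell replicate 1 (1.07, adjusted p = 0.101) and without MERVL-KD 4-cell replicate 1 (0.79), and Zbed5 fell by less than 2-fold without control 4-cell replicate 1 and with library-size scaling (-0.95 each) in control and without MERVL-KD 2-cell replicate 1 (-0.87) in MERVL-KD.

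**Figure D4:**
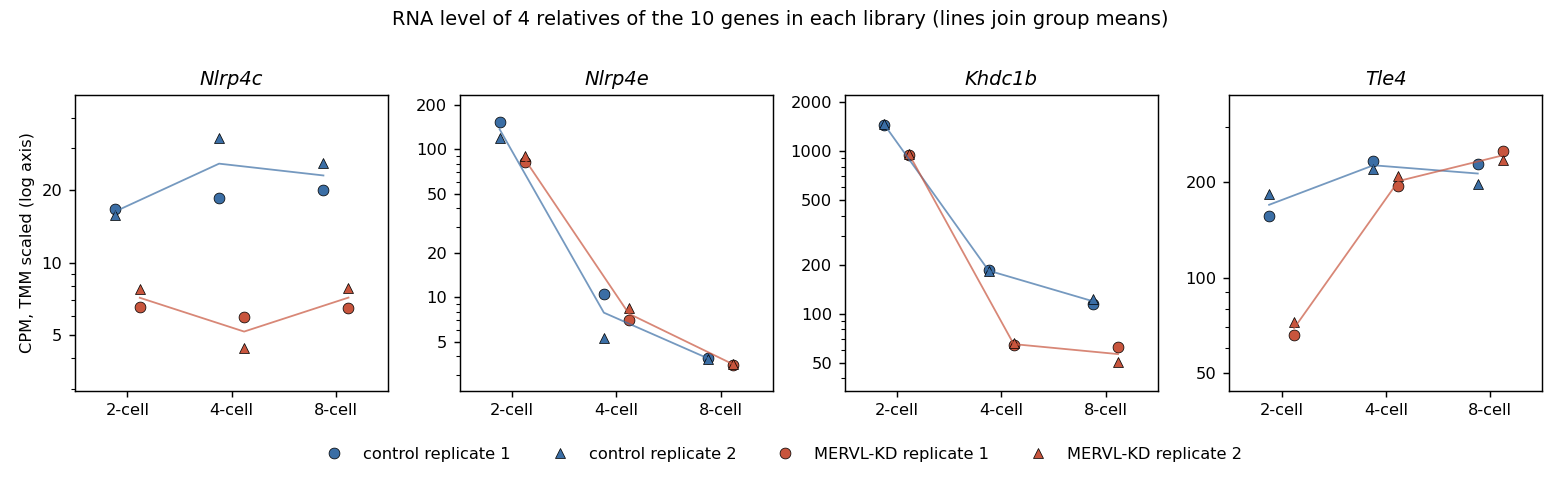
RNA level in CPM with TMM scaling (log axis) of Nlrp4c, Nlrp4e, Khdc1b and Tle4 in each library, with circles and triangles for replicates 1 and 2, blue for control, red for MERVL-KD, and lines joining group means. Nlrp4c is lower in MERVL-KD at each stage (also with library-size scaling), whereas Tle4 is apart from control by more than 2-fold at the 2-cell stage, by -0.92 with library-size scaling.

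Of 11 maternal-effect genes outside the complex, among them Dppa3, the most abundant at a mean of 984 CPM, none was called in MERVL-KD against control at any of the 3 stages by edgeR or by DESeq2. In edgeR 8, 5 and 4 had an unadjusted p under 0.05, with no share over all genes computed. By the adjusted p alone 4, 3 and 3 were lower and none higher. Over all genes 1523 of 20604, 1153 of 19738 and 656 of 18414 were lower by that rule. Dppa3 (-0.54, -0.36 and -0.29) and Btg4 (-0.69, -0.77 and -0.66) were lower by it at each stage, and with library-size scaling these 2 passed in 2-cell and 4-cell embryos only. At the 2-cell stage all 11 had both MERVL-KD libraries below both controls with TMM scaling, where 27% of all genes did. Their median was -0.30, close to that of the 10 genes, and with library-size scaling 5 were above 0 and 6 below. In the control step from the 2-cell to the 4-cell stage 6 of 11 fell (Zar1l, Btg4, Npm2, Hsf1, Zfp57 and Uhrf1) and Trim28 and Smarca4 rose. The same 8 were called in the same directions in MERVL-KD. Over all genes 28.5% were called lower and 25% higher in control, and 26.4% and 23.3% in MERVL-KD. Btg4, which drives the shortening of maternal mRNA tails, fell the most (-4.72 in control, adjusted p = 2.13e-09).

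Of 13 oocyte genes and oocyte transcription factors in the files, none was called in MERVL-KD against control at the 3 stages by edgeR or by DESeq2. In edgeR 7, 5 and 0 had an unadjusted p under 0.05, with no share over all genes computed. By the adjusted p alone 4 (H1f8, Bcl2l10, Oosp1 and Bmp15), 0 and 0 were lower, of which Bcl2l10 and Bmp15 passed with library-size scaling. At the 2-cell stage 7.39% of all genes were lower by that rule. At the 4-cell stage 10 of 12 tested were above 0, with a median of 0.39 beside 0.03 over all genes. Of these 12, 8 were apart and higher and 1 apart and lower, where 28.3% and 26% of all genes were. In the control step to the 4-cell stage 10 of 12 tested fell (Lhx8, Nobox, Figla, H1f8, Zp2, Bcl2l10, Gdf9, Zp1, Oosp1 and Bmp15) with a median of -2.10, and in MERVL-KD 8 of 13 fell, with a median of -1.50, Figla (-1.83) being called there in 7 of 11 alternatives. Over all genes 28.5% were called lower in control and 26.4% in MERVL-KD. Bmp15, the most abundant of the list at a mean of 162 CPM, stood at 615 and 522 CPM in control 2-cell embryos and at 28.8 and 33.0 CPM in control 4-cell embryos. Figla, the factor of the E-box, averaged 1.31 CPM and then 0.325 CPM, a log2 fold change of -1.88 (adjusted p = 0.0410) that was called in 8 of 11 alternatives, not by DESeq2 and not without control 2-cell replicate 2 (-1.59) or control 4-cell replicate 2 (-1.29).

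Stage markers were read in each library, and not all followed the stage they were listed for. Sox2, listed as a marker of the later embryo, was lower at the 4-cell than at the 2-cell stage. Its log2 fold change over the alternatives ran from -4.50 to -4.01 in control and from -2.71 to -1.45 in MERVL-KD. In control, Zscan4c, a marker of the 2-cell stage, stood at 62.9 and 44.4 CPM at the 2-cell stage and under 1 CPM in all 4 later control libraries, and Tead4, the most abundant of the list, at 10.7 and 14.0 CPM and then at 223 and 198 CPM. In MERVL-KD against control 1 of 11 was called at the 2-cell stage (Zscan4c, -1.47, adjusted p = 1.93e-05, but 0.180 in the joint fit), 3 at the 4-cell stage (Krt8 at 2.45, adjusted p = 2.01e-05, Krt18 at 1.41, adjusted p = 0.00725, and Zfp352 at -1.04, adjusted p = 0.0317) and none at the 8-cell stage by edgeR or DESeq2, with 3 at an unadjusted p under 0.05. Zfp352 was not called with library-size scaling (-0.97), in the joint fit (adjusted p = 0.366), without control 4-cell replicate 2 (-0.88) and without MERVL-KD 4-cell replicate 2 (-0.72). In the control steps 6 of 11 were called from 2-cell to 4-cell (Nanog and Tead4 higher, and Sox2, Zfp352, Zscan4c and Zscan4d lower) and 3 from 4-cell to 8-cell (Gata3 and Krt8 higher, Zfp352 lower), Gata3 not without control 8-cell replicate 1 (0.93), Krt8 not without control 4-cell replicate 1 (0.92) or with library-size scaling (0.91), and Zfp352 not in the joint fit (adjusted p = 0.0757). Over all genes 53.5% were called from 2-cell to 4-cell in control and 49.6% in MERVL-KD. In MERVL-KD 7 were called from 2-cell to 4-cell, with Krt8 joining the higher ones (Zscan4c and Zscan4d with an adjusted p above 0.05 without either 2-cell library, at -3.64 and -3.49 and at -5.13 and -4.53), and Krt8 fell from 4-cell to 8-cell (-1.23, adjusted p = 0.0127).

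Markers of cumulus and granulosa cells, which surround a collected zygote, were close to 0. Their 11 genes together had between 29 and 229 counts in a library, with 170 and 189 in control 2-cell, 217 and 229 in MERVL-KD 2-cell, 43 and 45 in control 4-cell, 72 and 96 in MERVL-KD 4-cell, 33 and 43 in control 8-cell, and 71 and 29 in MERVL-KD 8-cell embryos. The most abundant, Ptgs2, averaged 0.729 CPM, and 5 of 11 had at most 15 counts in every library. None of the markers tested was called in MERVL-KD against control by edgeR (4, 1 and 0 tested, 0, 1 and 0 at an unadjusted p under 0.05) or by DESeq2. In the steps to the 4-cell stage Ptgs2, Tnfaip6 and Has2 fell in control, and Ptgs2 and Cyp19a1 fell and Foxl2 rose in MERVL-KD, the last from 2 and 2 counts to 26 and 38. Has2 was called in 5 of 10 alternatives, and leaving out any of control 2-cell replicate 1 (-2.58), control 2-cell replicate 2 (-3.22) or control 4-cell replicate 2 (adjusted p = 0.0627) ended its call. Their part in the steps of the 10 genes was not tested.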

How the data were processed

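The deposited files hold counts, made by the authors by aligning paired reads to GRCm38 with STAR 2.5.3a (unique alignments) and counting them with featureCounts on GENCODE genes and repeat families; the strand setting and the counting of mates are not stated, and 71.8% to 74.7% of genes with 1 to 50 counts had an even count. The 12 RNA libraries were grouped by their titles, with replicates described as biological. Each comparison of 2 groups was fitted with edgeR 4.0.16 in R 4.3.3 (filterByExpr, TMM, robust quasi-likelihood tests), and the differences of effects in 1 fit of 12 libraries. P-values were adjusted by Benjamini-Hochberg over all genes and repeat families tested. A gene was called where the adjusted p lay below 0.05 with a change of 2-fold or more (no fold for differences). Counts at an unadjusted p under 0.05 have no share over all genes beside them, which was not computed. All 10 genes were named in each comparison, and listed genes where called or most abundant; other names were chosen after their values were seen. The genes and lists were chosen with earlier results of these data known. Alternatives: DESeq2 1.42.0, its size factors, library size, other count filters, halved counts, 1 joint fit, no fold threshold and leaving out each library. The code was tested on simulated data.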

Additional observations from a re-analysis of the deposited data

Results flagged for a closer look

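The effect of MERVL knockdown differed between the 4-cell and the 2-cell stage, by a test of the difference at an adjusted p under 0.05, for 2 of the 10 genes, Padi6 (0.68 on the log2 scale) and Nlrp4f (0.93), where 4.16% of 24040 genes did (2.51% positive). By the same test it differed for 9 of 67 listed genes tested outside them. The difference was 0.85 for Nlrp4a, 1.13 for Tle4 and -0.88 for Khdc1b. It was 0.82 for Zar1 and 0.62 for Zfp57 among the maternal-effect genes, and 0.76 for Gdf9 and 0.87 for Zp2 among the oocyte genes. Of the stage markers, Tead4 had -1.11 and Krt8 1.89. With library-size scaling Nlrp4a, Zar1, Zfp57, Gdf9 and Zp2 lost the adjusted p, as Padi6 and Nlrp4f did. These 5 lost it with single libraries left out as well, passing in 16 (Nlrp4a), 15 (Zp2), 12 (Gdf9), 10 (Zar1) and 8 (Zfp57) of 19 alternatives, while Tle4, Khdc1b, Tead4 and Krt8 passed in all 19. Between the 8-cell and the 4-cell stage 1 listed gene differed, Krt8, at -2.33. Krt8 stood at 24.6 and 28.1 CPM in the MERVL-KD 4-cell libraries and at 12.6 CPM or less in each of the other 10 libraries.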

How the results depend on the processing

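Of 1220 values recomputed for single genes among the 10, 1153 kept their direction and side of the threshold, 36 changed sign, 13 gained and 18 lost a call. The cause of these changes was not tested. Library-size scaling changed the sign, MERVL-KD against control, of Tle6 (0.0525), Khdc3 (0.0647), Zbed3 (0.14), Nlrp9b (0.0135) and Nlrp14 (0.0820) in 2-cell embryos and of Nlrp5 (0.0797) and Padi6 (0.0382) in 8-cell embryos, of Tle6 (-0.17) and Zbed3 (-0.0896) from 4-cell to 8-cell in control, and of Nlrp5 (-0.15) in the difference between 4-cell and 2-cell. It called 1 of the 10 genes from 4-cell to 8-cell in MERVL-KD and 0 in the difference, with 1500 genes called there. In 2-cell embryos it turned 462 genes lower and 900 higher into 294 and 1710. A filter of 10 counts in every library gave Tle6 (-0.00259) in the control 4-cell to 8-cell step. Whether replicate numbers pair samples is not stated, and r for like-numbered libraries (between -0.0975 and 0.0274) cannot settle it. With the replicate block Zbed3 (-0.0577) changed sign in the control 4-cell to 8-cell step, and 359 genes were called in the MERVL-KD step. The calls among the 10 genes were then equal in number in all comparisons. With 1 library left out, the lone sample of its group is assumed to vary like the others. Ranges that then crossed 0 were, for MERVL-KD against control, Khdc3 (-0.51 to 0.0999) and Zbed3 (-0.30 to 0.00335) in 2-cell, Nlrp2 (-0.10 to 0.20), Nlrp4f (-0.21 to 0.41) and Nlrp9b (-0.14 to 0.34) in 4-cell, and Nlrp5 (-0.18 to 0.10), Tle6 (-0.0629 to 0.22), Ooep (-0.29 to 1.43), Zbed3 (-0.997 to 0.49) and Nlrp14 (-0.0700 to 0.34) in 8-cell embryos. From 4-cell to 8-cell they were Tle6 (-0.0788 to 0.12), Zbed3 (-0.81 to 0.67) and Nlrp2 (-0.26 to 0.0534) in control and Ooep (-1.16 to 0.56), Khdc3 (-0.0748 to 0.44) and Nlrp9b (-0.33 to 0.0759) in MERVL-KD, and in the difference between 8-cell and 4-cell Ooep (-0.63 to 1.11) and Nlrp14 (-0.32 to 0.11). Members called ranged from 0 to 1 in 8-cell embryos and in the MERVL-KD 4-cell to 8-cell step, and from 0 to 2 in the difference between 4-cell and 2-cell. Genes called ranged from 348 to 529 in 8-cell embryos, 341 to 494 and 334 to 555 in the control and MERVL-KD 4-cell to 8-cell steps, and 515 to 1207 and 93 to 272 in the differences. With no fold threshold 3 of the 10 were called in 2-cell embryos, 1 in 4-cell embryos, and 1 each in the control and MERVL-KD 4-cell to 8-cell steps, with 2904, 2125, 932, 1916 and 358 genes called at the 3 stages and in these steps. A filter of 1 count gave 496 genes in 8-cell embryos, 511 in the MERVL-KD 4-cell to 8-cell step and 449 in the difference between 8-cell and 4-cell. DESeq2 gave 303, 1585 and 447 in that step and the differences, and the joint fit 394. Limits: 2 libraries a group, pools of embryos, no measure of total RNA per embryo, and shared bases in Khdc3 whose counting is not stated.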
